A study of Mus musculus with 4 samples.

Results

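The genes described here encode activin and inhibin subunits (Inha, Inhba, Inhbb), the activin-binding proteins follistatin and follistatin-like 3 (Fst, Fstl3), and activin receptors (Acvr1, Acvr1b, Acvr2a, Acvr2b), and they were followed in ureter tumors and normal ureter of mice. Members were the probe sets that the platform annotation of the chip gives to a single one of these 9 genes, which left 18 of the 45101 probe sets. The genes are taken by name, but the family was selected on the tumor against normal difference of Inhba, which was already known, so all tumor against normal values of its members are given as a description: no p-value of a member is printed, and counts of members past a threshold support nothing. RNA came from ureter epithelium, as the labels' protocols put it, of C57Bl/6 mice aged 6 to 8 weeks, and each sample was hybridised to 1 Affymetrix Mouse Genome 430 2.0 array. There were 2 ureter tumors and 2 normal ureters. The labels give one treatment text for all 4 samples, in which R26rtTA;teto-Cre;Ncstnf/f animals received 1 week of doxycycline, starting at 3 weeks of age, to recombine Ncstn, the gene of the gamma-secretase subunit nicastrin. No source used here states which genotype each of the samples had. R26 is a locus that is active in most cell types, so recombination under this activator is not limited to urothelium by design. Biological replicates are named in the labels but animals are not, so p-values measure only the spread between these samples.

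Activins are dimers of inhibin beta subunits, activin A being made of the Inhba product and activin B of the Inhbb product. Paired with the alpha subunit from Inha, the same beta chains form inhibins, which oppose activin. Activin binds a type II receptor (Acvr2a or Acvr2b), which recruits and phosphorylates the type I receptor Acvr1b, and Acvr1b phosphorylates Smad2 and Smad3, which enter the nucleus with Smad4. Follistatin and follistatin-like 3 hold activin outside the cell and keep it from its receptors. Activin A is known from wound repair, fibrosis and inflammation of epithelial organs.

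Upstream sequence from RefSeq (GRCm38.p6) was available for 8 of the 9 genes, all but Fst. It is shown for 4 of them because 2 of these, Inhba and Fstl3, had the largest tumor against normal differences of the family, while Inhbb is the other activin ligand gene and Acvr1b the type I receptor gene. The windows run 5′ to 3′ on the gene's strand, hold 250 bases and end 1 base before the RefSeq start. They lie at chr13:16011601-16011850 on the plus strand for Inhba, chr10:79777024-79777273 on the plus strand for Fstl3, chr1:119422249-119422498 on the minus strand for Inhbb and chr15:101173822-101174071 on the plus strand for Acvr1b. Capitals mark the TATA box word TATAAA and the GC box word CCGCCC on either strand.
Inhba: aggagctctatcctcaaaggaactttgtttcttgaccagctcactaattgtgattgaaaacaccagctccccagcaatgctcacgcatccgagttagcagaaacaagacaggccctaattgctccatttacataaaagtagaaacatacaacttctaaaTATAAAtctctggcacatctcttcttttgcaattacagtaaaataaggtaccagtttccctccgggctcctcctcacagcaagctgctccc
Fstl3: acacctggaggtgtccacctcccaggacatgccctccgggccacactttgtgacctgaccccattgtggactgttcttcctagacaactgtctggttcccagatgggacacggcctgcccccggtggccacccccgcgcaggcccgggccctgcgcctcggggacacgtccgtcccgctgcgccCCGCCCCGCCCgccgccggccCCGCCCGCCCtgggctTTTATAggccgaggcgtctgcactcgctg
Inhbb: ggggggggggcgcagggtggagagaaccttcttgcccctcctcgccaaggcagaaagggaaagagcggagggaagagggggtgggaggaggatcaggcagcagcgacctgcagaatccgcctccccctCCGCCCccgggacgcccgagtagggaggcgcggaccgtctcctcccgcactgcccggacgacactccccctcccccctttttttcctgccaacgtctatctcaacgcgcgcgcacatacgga
Acvr1b: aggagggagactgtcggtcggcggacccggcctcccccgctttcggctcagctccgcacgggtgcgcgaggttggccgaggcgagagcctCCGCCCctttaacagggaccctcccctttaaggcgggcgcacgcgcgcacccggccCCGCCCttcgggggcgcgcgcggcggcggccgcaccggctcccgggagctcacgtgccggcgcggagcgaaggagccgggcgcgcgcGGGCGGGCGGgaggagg

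The word TATAAA was found in the windows of Inhba and Fstl3 and in none of the other 6, while 12.4% of all 32851 RefSeq windows of this length held it. In Inhba it lay 91 to 86 bases before the start, and in Fstl3 on the opposite strand, 29 to 24 bases before it. The GC box word was in 6 windows, those of Inhbb, Fstl3 and all 4 receptor genes, against 32.7% of all windows. The Inhba window had a GC content of 43.2% and 3 CpG sites, and the Inha window 53.6% and 4, where the median over all windows was 52.4% and 6. The receptor windows had 24 to 49 CpG sites, those of Inhbb and Fstl3 21 and 22. Of 7 more words searched on both strands, CAGACA was in the Fstl3 window and in 17.1% of all windows. The AP-1 word TGACTCA, the CRE word TGACGTCA, the Smad palindrome GTCTAGAC, the Foxh1 word AATCCACA, the Rbpj word GTGGGAA and the word AACACA were in 0 of the 8. These matches describe letters in 1 window per gene and were not tested against the expression values. The RefSeq spans of Inhba (chr13:16004256-16031609), Inha and Acvr2b begin before their windows, so other starts of these genes were not searched.

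The arrays were scaled by the authors to a common mean, and the median signal was 85.0 and 94.2 on the tumor arrays and 107 and 103 on the normal arrays. The tumor arrays differed from each other more than the normal arrays did, with Pearson's r across genes of 0.786 and 0.976, and r between a tumor and a normal array was 0.769 to 0.827. Ncstn (1418570_at) had a signal of 81.6 and 131 on the tumor arrays, against 99.0 and 66.2 on the normal arrays, and it checks no label, because no source used here names the deleted part. For Gapdh, the 3′ signal over the 5′ signal, a ratio used to judge RNA quality, was 1.51 and 1.44 on the tumor arrays and 0.920 and 0.923 on the normal arrays, while for Actb it was 2.47 and 2.63 on the tumor arrays and 2.90 and 2.82 on the normal arrays. The tissue label was only partly borne out by marker genes. Umbrella cell markers summed to 863 and 758 on the tumor arrays, against 25462 and 44270 on the normal arrays, with 3 of 6 called lower in the limma fit described below (Upk3a, a difference of -6.76 on the log2 scale, adjusted p = 0.0369), while fat cell markers summed to 9935 and 14.2 on the tumor arrays and to 135074 and 133734 on the normal arrays. The normal samples thus gave strong fat cell signals beside those of epithelium. Kidney tubule markers, also outside the label, summed to 1447 and 93787 on the tumor arrays and to 10299 and 16509 on the normal arrays. With 2 arrays per group, the precision of each value below is low.

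Among the ligand genes, Inhba was the member that stood farthest from normal ureter. Probe set 1422053_at gave a signal of 1017 and 747 in the tumors, against 25.2 and 17.9 in normal ureter. Both tumors lay far above both normal samples, and the tumors lay closer to each other than to either normal sample. On the log2(signal + 16) scale the difference was 4.57 (SE 0.34, n = 2 per group), or 23.8-fold on that scale, with 4.79 for tumor 1 and 4.35 for tumor 2. The normal signals lie under the limit below which genes were not tested, 54.6, so the size depends on the constant added before the logarithm, and it was 5.29 with 1 and 3.45 with 64. The other Inhba probe set, 1458291_at, had a signal of 20.6 and 5.12 in the tumors and 29.3 and 2.91 in normal ureter. It stayed below that limit in all 4 samples, the groups overlapped, and its difference was -0.07.

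Inhbb, the beta subunit of activin B, was higher in tumor 1 than in tumor 2. Probe set 1426858_at gave 2143 and 869 in the tumors and 581 and 527 in normal ureter, with both tumors above both normal samples. The difference of means was 1.28 (SE 0.49), made of 1.92 in tumor 1 and 0.64 in tumor 2, which are also its values without tumor 2 and without tumor 1. The dimmer probe set 1426859_at did not show it, with 162 and 168 in the tumors and 169 and 91.7 in normal ureter, and a difference of 0.36.

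Inha, the alpha subunit that turns a beta chain into inhibin, had a signal of 97.7 and 94.8 in the tumors and 120 and 103 in normal ureter (1422728_at). Both tumors lay below both normal samples, but by a small step, with a difference of -0.18 (SE 0.33). That sign held on the scaled signals as deposited and turned under quantile normalization (0.0056) and under centring on the median (0.017).

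**Figure D1:**
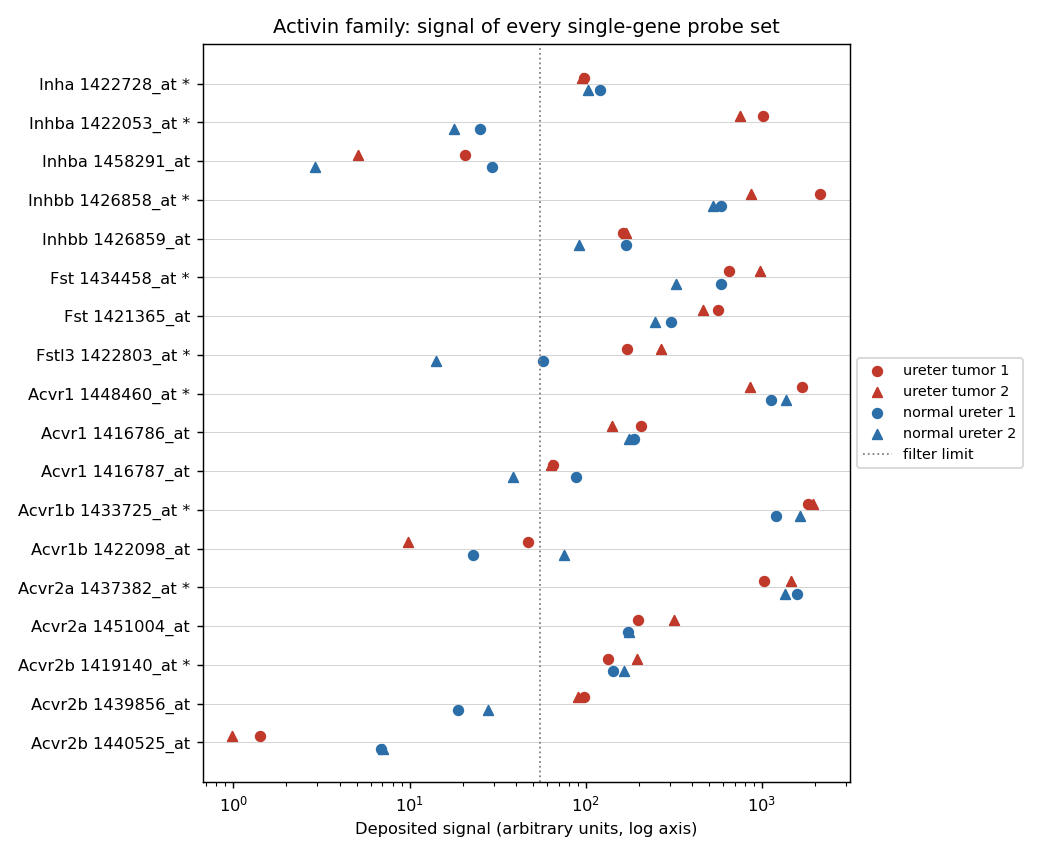
Deposited signal (arbitrary units, log axis) of the 18 probe sets of the 9 genes on each of the 4 arrays, tumors in red and normal ureter in blue; an asterisk marks the probe set that reads the gene and the dotted line the filter limit of 54.6. The Inhba probe set 1422053_at separates the groups by far, at 1017 and 747 against 25.2 and 17.9, while most receptor probe sets overlap.

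Both binding proteins had higher signals in the tumors. Fstl3, a secreted relative of follistatin, gave 171 and 265 in the tumors, against 57.1 and 14.1 in normal ureter (1422803_at). The tumors lay above both normal samples, although the normal samples differed from each other by 1.28 on the log2 scale. The difference was 2.29 (SE 0.59), with 1.99 in tumor 1 and 2.58 in tumor 2. As for Inhba, the normal mean lay under the filter limit, and with 64 added before the logarithm the difference was 1.52.

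Fst was read by a pair of probe sets that gave nearly the same difference. On 1434458_at it had 649 and 973 in the tumors and 583 and 327 in normal ureter, a difference of 0.84 (SE 0.40), which was 0.44 without normal sample 2 and 0.55 without tumor 2. On 1421365_at it had 559 and 461 in the tumors and 303 and 248 in normal ureter, a difference of 0.85 (SE 0.26). Tumors lay above normal samples on both, but the order of the tumors was opposite, tumor 2 being the brighter on the first and tumor 1 on the second.

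The receptor genes had small differences on the probe sets that read them. Acvr1b, the type I receptor of activin, gave 1818 and 1949 in the tumors and 1199 and 1646 in normal ureter (1433725_at). Both tumors were above both normal samples, with a difference of 0.42 (SE 0.23), about the spread between the normal samples, which was 0.45. Its second probe set, 1422098_at, was dim, at 47.1 and 9.76 in the tumors and 23.0 and 75.5 in normal ureter, and the groups overlapped.

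The type II receptor gene Acvr2a gave 1031 and 1456 in the tumors and 1583 and 1344 in normal ureter (1437382_at), with overlapping groups and a difference of -0.25 (SE 0.25). Its other probe set, 1451004_at, pointed the other way, with 199 and 315 in the tumors and 173 and 177 in normal ureter, a difference of 0.48. Acvr2b, the second type II receptor gene, also depended on the probe set. On 1419140_at, which reads the gene, it gave 134 and 194 in the tumors and 142 and 164 in normal ureter, a difference of 0.08 (SE 0.34) between overlapping groups. On 1439856_at it gave 98.1 and 90.2 in the tumors and 18.8 and 27.7 in normal ureter. There the tumors lay clearly above the normal samples, with a difference of 1.50 (SE 0.41), but this probe set averaged 49.5 and was below the filter limit. The third, 1440525_at, was near the bottom of the scale, at 1.42 and 0.984 in the tumors and 6.91 and 7.07 in normal ureter.

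Acvr1, a type I receptor used mostly by bone morphogenetic proteins, split the tumors. It gave 1680 and 857 in the tumors and 1117 and 1373 in normal ureter (1448460_at), so that tumor 1 lay above and tumor 2 below both normal samples, and the difference was -0.04 (SE 0.39), or 0.15 under centring on the median. Its dimmer probe sets gave -0.08 on 1416786_at and 0.09 on 1416787_at, also with overlapping groups.

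Over the family, all 9 genes passed the filter on low signal through the probe set that reads them, as did 14 of the 18 probe sets. Inhba and Fstl3 had normal means under the limit and passed through the tumors. In the limma fit of all genes (two-sided, Benjamini-Hochberg adjusted p under 0.05, n = 2 per group) Inhba was called higher and the other 8 were not called, where 1.43% of all genes tested were called in either direction, 0.491% higher and 0.943% lower. The contrast was known when the family was chosen, so nothing is read from this count. Leaving out either normal sample left 0 genes called on the whole array, Inhba included, and the difference of Inhba was still 2.25 or more in all 13 alternatives that kept it. Both tumors lay above both normal samples for 5 genes (Inhba, Inhbb, Fst, Fstl3, Acvr1b), where 29.4% of all genes did so, and below for 1 (Inha), where 27.7% did. The median difference was 0.42 over the 9 genes and 0.03 over all genes tested. On the probe sets that read them, the 4 receptor genes lay between -0.25 and 0.42. Both activin ligand genes and both binding protein genes lay between 0.84 and 4.57. Other probe sets broke this order, with 1439856_at of Acvr2b at 1.50, 1426859_at of Inhbb at 0.36 and 1458291_at of Inhba at -0.07. So did leaving out normal sample 2, with Acvr1b at 0.64 and Fst at 0.44.

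**Figure D2:**
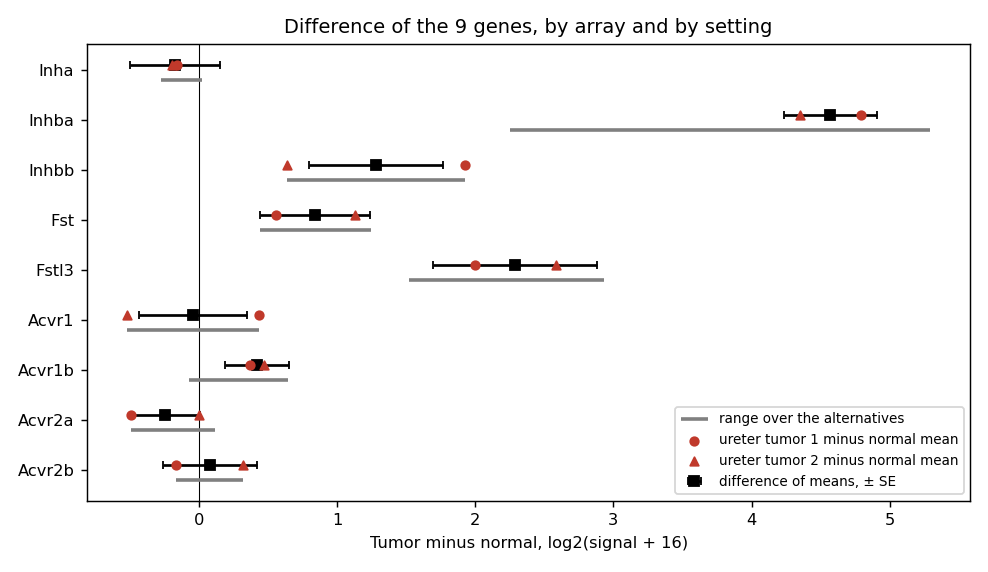
Tumor minus normal difference on the log2(signal + 16) scale for the probe set that reads each gene: squares with SE bars are differences of means (n = 2 per group), red points are each tumor minus the normal mean, and grey bars span the values under the alternative settings. Inhba at 4.57 and Fstl3 at 2.29 stay above 0 throughout, and the bars of Inha and the 4 receptor genes reach or cross 0.

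The genes whose profile was most like that of Inhba were found by Euclidean distance over the 4 arrays, after centring each gene on its normal mean on the log2 scale, among the 13045 other genes tested. The nearest were the light chain gene Igkv9-120 (distance 0.54), the secreted glycoprotein gene Olfm4 (0.60), the fractalkine receptor gene Cx3cr1 (0.63), the Wnt antagonist gene Frzb (0.69) and the plasma cell gene Mzb1 (0.75). Olfm4 gave 2537 and 1616 in the tumors and 47.3 and 61.5 in normal ureter. Cx3cr1 gave 1376 and 975 in the tumors and 59.1 and 17.3 in normal ureter. With 4 arrays in a pair of groups, likeness of this kind mostly says that a gene differed by about as much in both tumors.

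Other genes of the pathway were taken from 4 lists of 46 genes, of which 42 had a probe set here and 31 passed the filter. In the same limma fit 0 of the 31 were called in either direction, where 1.43% of all genes were. An unadjusted p under 0.05 was reached by 13 of the 31, against 21.5% of all genes tested. The list of Smad2/3 target genes lay above normal nearly throughout. Of its 11 tested genes 10 had both tumors above both normal samples, where 29.4% of all genes did, and 0 had both below, and the median difference was 1.11, against 0.03 over all genes (1.74 in tumor 1 and 1.00 in tumor 2). These genes also respond to TGF-beta and to other signals. The 4 lists were chosen with earlier results of these data known, so these counts are a description and support nothing.

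Ccn2, a matricellular protein gene, had the largest difference among the targets. It gave 6034 and 19877 in the tumors and 930 and 1006 in normal ureter, a difference of 3.48 (SE 0.62, limma adjusted p = 0.0955). Fn1, which encodes fibronectin, gave 14276 and 8558 in the tumors and 4357 and 3074 in normal ureter, a difference of 1.59 (SE 0.35, adjusted p = 0.126). The Smad corepressor gene Skil had a difference of 1.44 (SE 0.34, adjusted p = 0.133). Smad7, the inhibitory Smad induced by the pathway, gave 501 and 672 in the tumors and 308 and 337 in normal ureter, a difference of 0.82 (SE 0.26, adjusted p = 0.199). None of these passed the threshold as a single gene in the limma fit.

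The transducers went both ways, with a median of 0.07 over 10 tested genes, of which 5 had both tumors above both normal samples and 1 had both below. Smad2 gave 960 and 1033 in the tumors and 1002 and 1007 in normal ureter, a difference of -0.01 (limma adjusted p = 0.979). Smad3 gave 1962 and 1983 in the tumors and 1233 and 1409 in normal ureter, a difference of 0.58 (SE 0.18, adjusted p = 0.187), and Smad4 had one of 0.30 (adjusted p = 0.376). Ppm1a, a phosphatase that acts on Smad2 and Smad3, gave 1873 and 2221 in the tumors and 4147 and 3781 in normal ureter, a difference of -0.95 (SE 0.19, adjusted p = 0.107).

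Receptors and modulators outside the family held the lowest values of the pathway, but this list went both ways. Of its 9 tested genes 3 had both tumors above both normal samples and 4 had both below, with a median of 0.05. Acvr1c, a type I receptor gene known from fat cells, gave 62.1 and 20.5 in the tumors and 895 and 965 in normal ureter, a difference of -4.15 (SE 0.47, limma adjusted p = 0.0511). Its tumor mean, 41.3, lay under the filter limit, and the difference was -4.66 with 1 and -3.27 with 64 added before the logarithm. Fat cell markers moved the same way: all 4 with a probe set were lower in both tumors than in both normal samples, and Ucp1, the uncoupling protein of brown fat, gave 3.15 and 3.41 in the tumors and 19660 and 21580 in normal ureter (a difference of -10.06, limma adjusted p = 0.00863). The part of fat tissue in the difference of Acvr1c was not tested, and in bulk tissue fewer cells of a type and less RNA per cell cannot be told apart. Tgfbr3, the betaglycan gene whose product is a coreceptor for inhibin, gave 2408 and 2305 in the tumors and 7369 and 6252 in normal ureter, a difference of -1.52 (SE 0.18, adjusted p = 0.0534). Pcsk6, a proprotein convertase gene, had a difference of -2.42 (SE 0.51, adjusted p = 0.119). Of the related ligands, the beta subunit genes Inhbc and Inhbe were dim, at 12.8 and 11.1 in the tumors and 42.7 and 20.0 in normal ureter for Inhbc, and at 17.3 and 24.8 in the tumors and 56.6 and 25.2 in normal ureter for Inhbe. Lefty1 alone of this list passed the filter, with a difference of 0.26 (adjusted p = 0.745).

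**Figure D3:**
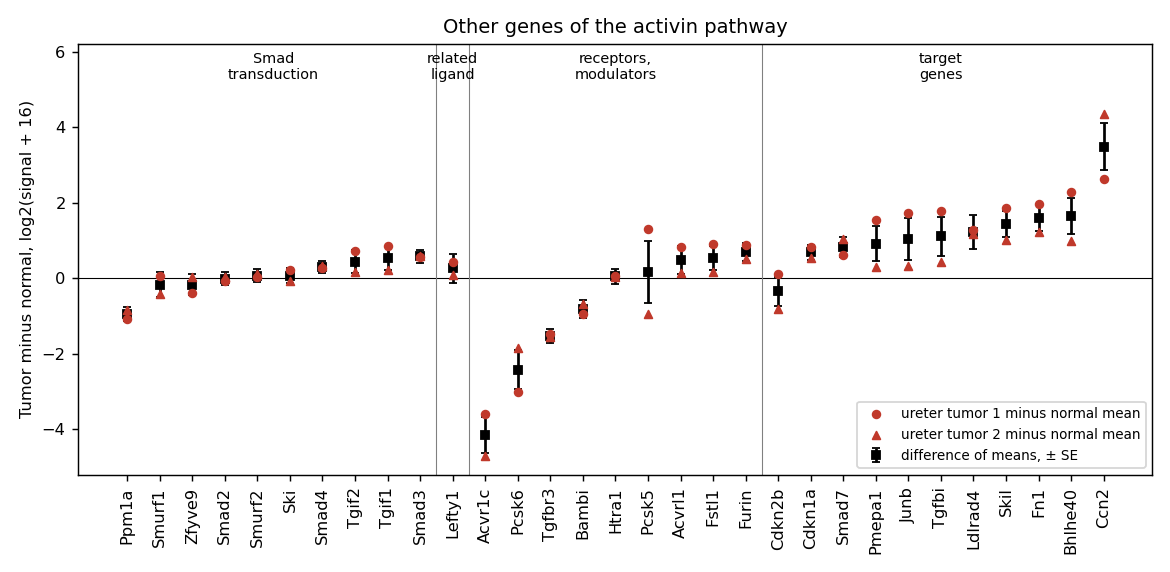
Tumor minus normal difference on the log2(signal + 16) scale for the 31 tested genes of the 4 pathway lists: squares with SE bars are differences of means (n = 2 per group) and red points are each tumor minus the normal mean. Target genes lie above 0 except Cdkn2b, with Ccn2 at 3.48, and Acvr1c lies lowest at -4.15.

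Markers of other cell types differed between the same samples, and their part in the differences of the activin family was not tested. Macrophage markers summed to 42973 and 35117 in the tumors and 9854 and 8453 in normal ureter, with all 7 genes higher and 3 called higher in the limma fit, among them C1qb with a difference of 2.65 (SE 0.20, adjusted p = 0.0402). Plasma cell markers summed to 131271 and 112335 in the tumors and 9501 and 12172 in normal ureter, with 2 of 5 called higher, Igha (7.17, adjusted p = 0.00863) among them. Sdc1 went the other way (-0.54) with overlapping groups, and its 7746 and 10580 made up most of the sums in normal ureter.

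Other lists separated the tumors from each other. Basal urothelial markers summed to 93248 in tumor 1 and 4061 in tumor 2, against 6645 and 10077 in normal ureter. Of these, Krt14, Krt15 and Cdh3 had both tumors above both normal samples, while Krt5 and Trp63 were lower in tumor 2 than in normal ureter. Mast cell markers summed to 52513 and 651 in the tumors and 788 and 660 in normal ureter, and neutrophil markers to 9607 and 1049 in the tumors and 307 and 158 in normal ureter. Kidney tubule markers ran the other way, at 1447 and 93787 in the tumors and 10299 and 16509 in normal ureter. Of the activin family, on the probe sets that read them, Inhbb, Acvr1 and Inhba were higher in tumor 1 by 1.29, 0.96 and 0.44 on the log2 scale, and tumor 1 minus tumor 2 was -0.59 for Fstl3, -0.57 for Fst and -0.49 for Acvr2a and for Acvr2b. The sums of fibroblast markers, at 108854 and 43367 in the tumors and 88788 and 71568 in normal ureter, overlapped between groups. Their members went both ways, with Pdgfra (0.82), Col1a1 (1.00) and Thy1 (1.76) higher in both tumors and Fap (-1.23) lower in both. Dcn, Lum and Col3a1 overlapped between groups. By limma 0 of the 7 fibroblast markers were called, where 1.43% of all genes were. Of the 7, 3 had an unadjusted p under 0.05, where 21.5% of all genes did. The sums of epithelial markers overlapped as well, at 51544 and 39901 in the tumors and 45046 and 61668 in normal ureter. Their members went both ways, with Epcam (1.82) and Cdh1 (0.85) higher in both tumors and Krt18 (-2.04) lower in both. Krt8 and Krt19 overlapped between groups. Smooth muscle markers summed to 12408 and 20263 in the tumors and 48173 and 37891 in normal ureter, with Myh11 called lower (-3.37, adjusted p = 0.0396). Adrenal cortex markers, included because that gland transcribes Inha, summed to 591 and 205 in the tumors and 354 and 986 in normal ureter. Only 2 of these 6 genes passed the filter. Cyp11a1, at 325, was the largest part of the sum in tumor 1, and Hsd3b1, at 484, in normal sample 2, and both genes were below the filter. T cell markers summed to 1131 and 288 in the tumors and 242 and 230 in normal ureter, and endothelial markers to 4855 and 3277 in the tumors and 4995 and 4523 in normal ureter. In the limma fit 0 of the 40 tested genes of these 9 lists other than smooth muscle were called, fibroblast markers included. An unadjusted p under 0.05 was reached by 12 of the 40, against 21.5% of all genes tested. No marker with a probe set was at a signal of exactly 0.

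**Figure D4:**
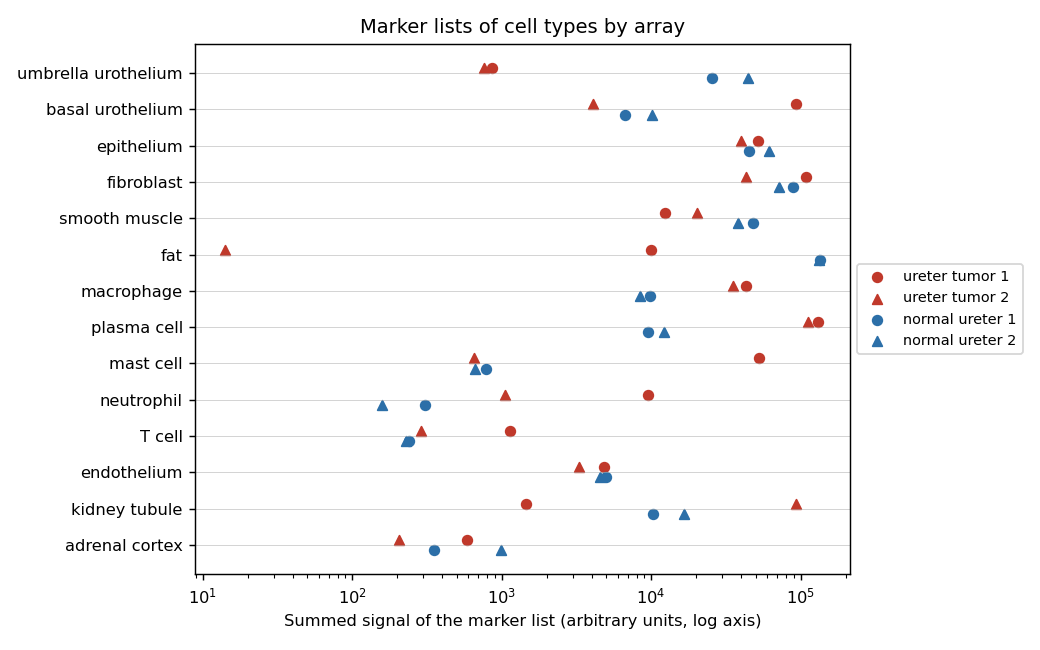
Summed signal (arbitrary units, log axis) of 14 marker lists on each array, tumors in red and normal ureter in blue. Macrophage and plasma cell sums lie higher in both tumors, fat and umbrella cell sums lower in both, and basal, mast cell, neutrophil and kidney tubule sums differ widely between the tumors.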

How the data were processed

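Expression was measured in 2 ureter tumors and 2 normal ureters on 1-colour Affymetrix Mouse Genome 430 2.0 arrays, from 6 ug of total RNA each. The authors deposited a table of linear intensity, the MAS5 signal of each probe set per the submitters' processing notes. Version, detection calls and filters are absent from the sources used here. The mean after trimming 2% at each end was 500 on each array, so every value is relative to the rest of its array. Of 45101 probe sets, 64 controls were left out and 34945 had 1 gene symbol, 34754 of them updated through the gene ID.

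Signals were transformed as log2(signal + 16), which understates changes of dim genes. A gene with several single-gene probe sets was read from the one whose mean on that log scale was highest, and the 13046 genes at or above the 40th percentile of probe sets (signal 54.6) were tested with limma 3.58.1 (R 4.3.3). The fit had an intensity trend, 2 residual and 2.11 prior degrees of freedom and Benjamini-Hochberg adjustment at 0.05. Probe sets that do not read a gene have values from a fit of every probe set. With 2 against 2 arrays no exact permutation test can pass 0.05. The fit was tested on simulated data. Members, pathway lists and marker lists were chosen with earlier results of these data known. Named genes were all members, from each pathway list the 3 with the smallest p plus Smad2, Smad3, Smad4, Smad7, Acvr1c, Tgfbr3, Inhbc and Inhbe, from marker lists the smallest p (given where called), and the 5 genes nearest to Inhba. Outside this rule, Olfm4 and Cx3cr1 are given with values as examples and Pcsk5 for its change of sign, chosen after their values were seen. Further genes of the plasma cell, basal, epithelial, fibroblast and adrenal cortex lists are named, also after their values were seen. They are given where members of a sum disagreed or a single gene made up much of it. Alternatives were other constants in the logarithm, quantile normalization, median centring, other filters, averaged probe sets, every probe set, no intensity trend, the replicate number as a block and leaving out each array. Figures were drawn with matplotlib 3.10.9.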

Additional observations from a re-analysis of the deposited data

How the results depend on the processing

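The number of genes called on the whole array, 187, was 35 under median centring, 117 with averaged probe sets, 357 with every probe set, 2 without the intensity trend and 0 with the replicate number as a block, and ran from 0 to 5502 when an array was left out. Among the activin family, the call of Inhba ended under median centring, with the 60th percentile filter (which removed Inhba), with the mean of probe sets, without the intensity trend and with the replicate block, each giving 0 members called by limma, with 4, 0, 3, 2 and 3 at an unadjusted p under 0.05, where 17.3% to 23.1% of all genes were in these settings. Leaving out an array gave 0 to 4 members called: 0 without either normal sample (2 and 1 at an unadjusted p under 0.05, as 6.78% and 6.81% of all genes), 4 without tumor 1 (Inhba, Inhbb, Fst, Fstl3), where 32.9% of all genes were called, and 3 without tumor 2 (Inhba, Inhbb, Fstl3), where 42.2% were. The pathway lists, with 0 genes called, had 1 with a constant of 64, 1 with the mean of probe sets, 1 with every probe set, 2 with the 60th percentile filter, and 0 to 18 when an array was left out. Of all genes tested, 1.91% were called with the constant of 64, 0.948% with the mean of probe sets and 2.31% with the 60th percentile filter. With every probe set, 1.56% of the probe sets were called. The shares of all genes called when a tumor was left out are those given above for the family. Acvr1c was the gene called with the constant, the mean, every probe set and the filter (adjusted p = 0.0384, 0.0465, 0.0428 and 0.0475). Tgfbr3 joined it under the filter (adjusted p = 0.0486). The difference of Pcsk5 was 0.18, -0.95 without tumor 1 and 1.30 without tumor 2. The median difference of the 9 members, 0.42, was 0.61 under median centring, which gave a median of 0.22 over all genes tested in place of 0.03, and lay between 0.19 and 0.47 when an array was left out. Inhba, Inhbb, Fst and Fstl3 kept their sign in every alternative that kept them, with Inhba between 2.25 and 5.29, Inhbb between 0.64 and 1.92, Fst between 0.44 and 1.24 and Fstl3 between 1.52 and 2.93. The sign of Acvr1 turned in 3 alternatives, of Acvr2b and Inha in 2 each, and of Acvr1b (-0.07) and Acvr2a (0.12) with the mean of probe sets. With an array left out, the lone array of that group is taken to vary like the other group. The replicate numbers of the titles are shared only as numbers: across genes the deviations of same-numbered samples correlated at 0.039. The cause of these moves was not tested.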
